A study of Mus musculus with 4 samples.

Results

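The nuclear-encoded subunit genes of respiratory complex I were examined in YFP-positive neural stem cells of the adult mouse subventricular zone, with and without Opa1. Members were taken by name, as the genes whose symbol starts with Ndufa, Ndufb, Ndufc, Ndufs, Ndufv or Ndufab followed by a number. The Ndufaf assembly factors and the genes marked as pseudogenes by the suffix -ps were left out. This rule found 41 genes among 55421 gene identifiers, and 38 of them, on 15 chromosomes, had enough reads to be tested. The other members were Ndufa11b, Ndufb4c and Ndufs6b, which the annotation lists as processed pseudogenes.

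RNA sequencing covered 2 WT and 2 Opa1 KO libraries. The WT controls carried Nestin-CreERT2 and the Rosa26YFP reporter, and the Opa1 KO animals carried the same alleles together with floxed Opa1, on a C57/BL/6 background, with both sexes used. Both groups received tamoxifen over 5 days, starting at an age of 6 to 10 weeks. The time from tamoxifen to dissection is given as 30 days in the methods and as 10 days elsewhere in the text, and could not be settled. Cre activity was driven by the Nestin promoter and YFP marks the descendants of recombined cells too. The sort can therefore hold stem cells, their progeny and other recombined cells. Whether cells without recombination were carried along was not tested. Whether each library stems from its own animal or from a pool is not stated in the labels. The p-values therefore reflect only how these samples scatter, and that scatter may be technical.

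Complex I, the NADH:ubiquinone oxidoreductase, is the entry point of electrons from NADH into the mitochondrial respiratory chain and pumps protons across the inner membrane. It is assembled from separately built parts. The N module oxidises NADH, the Q module passes electrons to ubiquinone, and the membrane arm, built around the mitochondrially encoded ND subunits, pumps protons. The catalytic core is shared with bacteria and is encoded partly in the nucleus and partly in mitochondrial DNA, whereas the accessory subunits are all nuclear. Opa1, the gene deleted here, encodes a membrane-remodelling GTPase that fuses inner mitochondrial membranes and shapes the cristae in which the complex sits.

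Recovered totals lay between 19985853 and 23237326 reads per library. Opa1 itself had normalised read counts of 3039 and 2833 in WT and 837 and 739 in Opa1 KO. The groups did not overlap, and the fitted log2 fold change was -1.90 with a standard error of 0.13. DESeq2 called it with an adjusted p of 1.3e-24, while its adjusted p in limma-trend, which called no gene, was 0.998. Levels below are normalised read counts as deposited, in the order WT 1, WT 2, Opa1 KO 1 and Opa1 KO 2, and a fold change, unless stated otherwise, is the Opa1 KO mean minus the WT mean of log2(value + 1). Smooth muscle, endothelial, microglia and ependymal markers differed more between libraries of one group than between the groups. The 7 ependymal markers summed to 5832 and 37087 in WT and to 8963 and 33984 in Opa1 KO, and the 8 microglia markers to 1913 and 226 in WT and to 1928 and 490 in Opa1 KO. Neuroblast markers, of the young neurons of this niche, were lower in Opa1 KO without overlap in 9 of 9, beside 15.7% of all genes. Their median log2 fold change was -0.43. The 7 oligodendrocyte markers were all higher without overlap, beside 15.2% of all genes, with a median of 0.99. All 7 were also higher in WT 1 than in WT 2, with a median difference of 1.03 on the log2 scale. They summed to 44262 and 23209 in WT and to 59442 and 58399 in Opa1 KO. Of the 8 neural stem cell markers, 5 were higher and 3 lower in Opa1 KO, with a median of 0.25. They summed to 77928 and 76764 in WT and to 99023 and 106379 in Opa1 KO. Slc1a3, at 40290, 40041, 54529 and 57420, and Aldoc, at 18408, 17610, 25423 and 25267, made up most of these sums. Opa1 KO 1 was below WT 1 in 5 of the 8 markers, with a median difference of -0.040. Opa1 KO 2 was below WT 2 in 1, with a median difference of 0.39. DESeq2 called Aldoc and Slc1a3 higher, beside 0.329% of all genes called. The lowest fold change of the stem cell list, -0.27, was that of Nes, whose promoter drives the Cre. In bulk samples, fewer cells of a type and less RNA per cell cannot be told apart.

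The sequences of a single pair are shown first, because the results below turn on how far its members part. Ndufa4 and Ndufa4l2 are paralogs that carry complex I names for historical reasons. The Ndufa4 protein is now counted as a subunit of cytochrome c oxidase, complex IV, and Ndufa4l2 encodes a related protein known as a target of the hypoxia-inducible factor HIF. Ndufa4 lies on the minus strand of chromosome 6 at chr6:11900292-11907497 and Ndufa4l2 on the plus strand of chromosome 10 at chr10:127514967-127517154, both in mm10. Their coding sequences, of 249 and 264 bases in the GENCODE annotation, were aligned, and 168 of 245 aligned bases were identical (68.6%). Capitals mark the identical bases.
Ndufa4: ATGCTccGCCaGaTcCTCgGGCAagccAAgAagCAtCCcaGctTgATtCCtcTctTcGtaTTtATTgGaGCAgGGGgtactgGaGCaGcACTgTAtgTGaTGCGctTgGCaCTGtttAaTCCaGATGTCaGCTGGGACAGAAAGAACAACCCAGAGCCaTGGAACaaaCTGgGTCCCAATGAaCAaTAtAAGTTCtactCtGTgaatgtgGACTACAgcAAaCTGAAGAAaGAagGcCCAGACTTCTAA
Ndufa4l2: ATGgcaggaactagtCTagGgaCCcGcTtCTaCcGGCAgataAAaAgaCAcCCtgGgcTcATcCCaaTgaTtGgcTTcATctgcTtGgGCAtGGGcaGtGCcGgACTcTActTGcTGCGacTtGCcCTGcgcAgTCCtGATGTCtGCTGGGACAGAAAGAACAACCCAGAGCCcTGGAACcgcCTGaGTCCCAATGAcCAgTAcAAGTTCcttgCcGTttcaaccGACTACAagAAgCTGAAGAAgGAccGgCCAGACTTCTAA
The longest run of identical bases held 28 bases, from base 131 to 158 of Ndufa4 and from 146 to 173 of Ndufa4l2, counted from the first base of the start codon.

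The promoters of the members were searched for short motifs in windows from 250 bases before to 50 bases after the annotated start (RefSeq, GRCm38.p6). A window was at hand for 33 of the tested members and for 12247 of all tested genes. The letters AAGATGGC, a motif bound by the transcription factor YY1, stood in 7 of 33 member windows (21.2%), against 4.67% of the windows of all tested genes. The windows of 30 bases around these matches are shown on the strand of the gene, with the motif in capitals.
Ndufa3, chr7:3617384-3617413, plus strand: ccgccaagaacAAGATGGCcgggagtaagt
Ndufa9, chr6:126849097-126849126, minus strand: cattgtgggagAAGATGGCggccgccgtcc
Ndufb8, chr19:44555393-44555422, minus strand: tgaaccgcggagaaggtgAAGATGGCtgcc
Ndufc1, chr3:51408915-51408944, minus strand: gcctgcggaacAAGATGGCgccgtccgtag
Ndufs4, chr13:114388045-114388074, minus strand: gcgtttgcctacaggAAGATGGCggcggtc
Ndufs6, chr13:73328433-73328462, minus strand: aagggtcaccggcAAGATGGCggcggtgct
Ndufs7, chr10:80249462-80249491, plus strand: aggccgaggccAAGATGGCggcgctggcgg
In all 7 genes the motif followed the annotated start, beginning 23 to 39 bases into the transcript, and in the sense direction. Its ATG was the annotated start codon in 7 of 7. The matching letters are therefore at once a motif and the beginning of the coding sequence. The 7 genes belong to different parts of the complex, the N module with Ndufs4 and Ndufs6, the Q module with Ndufa9 and Ndufs7, and the membrane arm with Ndufa3, Ndufb8 and Ndufc1. The core motif of NRF1, a regulator of respiratory chain genes, was searched as GCATGCGC and stood in 9.09% of member windows against 5.44% of all. The ETS or GABP motif CCGGAAG stood in 12.1% against 17.8%. The HIF response letters ACGTG stood in 18.2% against 28.0%, and the ATF4 element TGATGNAA in 0% against 2.78%. All motifs were searched on both strands, and 0 of the 7 matches to AAGATGGC overlapped another of them. These shares describe letters in a window, and binding was not measured.

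The question put to the members was whether the transcripts of the complex differ once Opa1 is lost. Transcripts of complex I stayed within a narrow band. Apart from Ndufa4l2, the fitted log2 fold changes of the 37 tested members lay between -0.24 (Ndufb8) and 0.11 (Ndufc2), and Ndufa4l2, the exception, was at 1.43. Of the 38 tested members, 30 were lower in Opa1 KO, with a median log2 fold change of -0.053, beside 51.0% lower and a median of -0.0073 over all 18547 genes tested. With scaling by library total only, 19 of the 38 were lower and the median was -0.00018, beside a median of 0.045 over all genes. In the fit on the deposited scale, the 95% interval of 37 of the 37 lay wholly between -1 and 1, and that of 30 lay above -0.5. The absolute fold change was smaller than its standard error in 34 of the 37.

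No member was called by limma-trend after adjustment, where 0.0% of all genes were called, and 1 member, Ndufa4l2, had an unadjusted p under 0.05, beside 3.59% of all genes. DESeq2 on the recovered reads called 0 members and 0.329% of all genes. The groups did not overlap with Opa1 KO lower in 6 of the 38 members, beside 15.7% of all genes, and with Opa1 KO higher in 2, beside 15.2%. The 6 lower members were Ndufa8, Ndufa11, Ndufa13, Ndufb7, Ndufb11 and Ndufs3, and the higher members were Ndufa6 and Ndufa4l2.

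**Figure D1:**
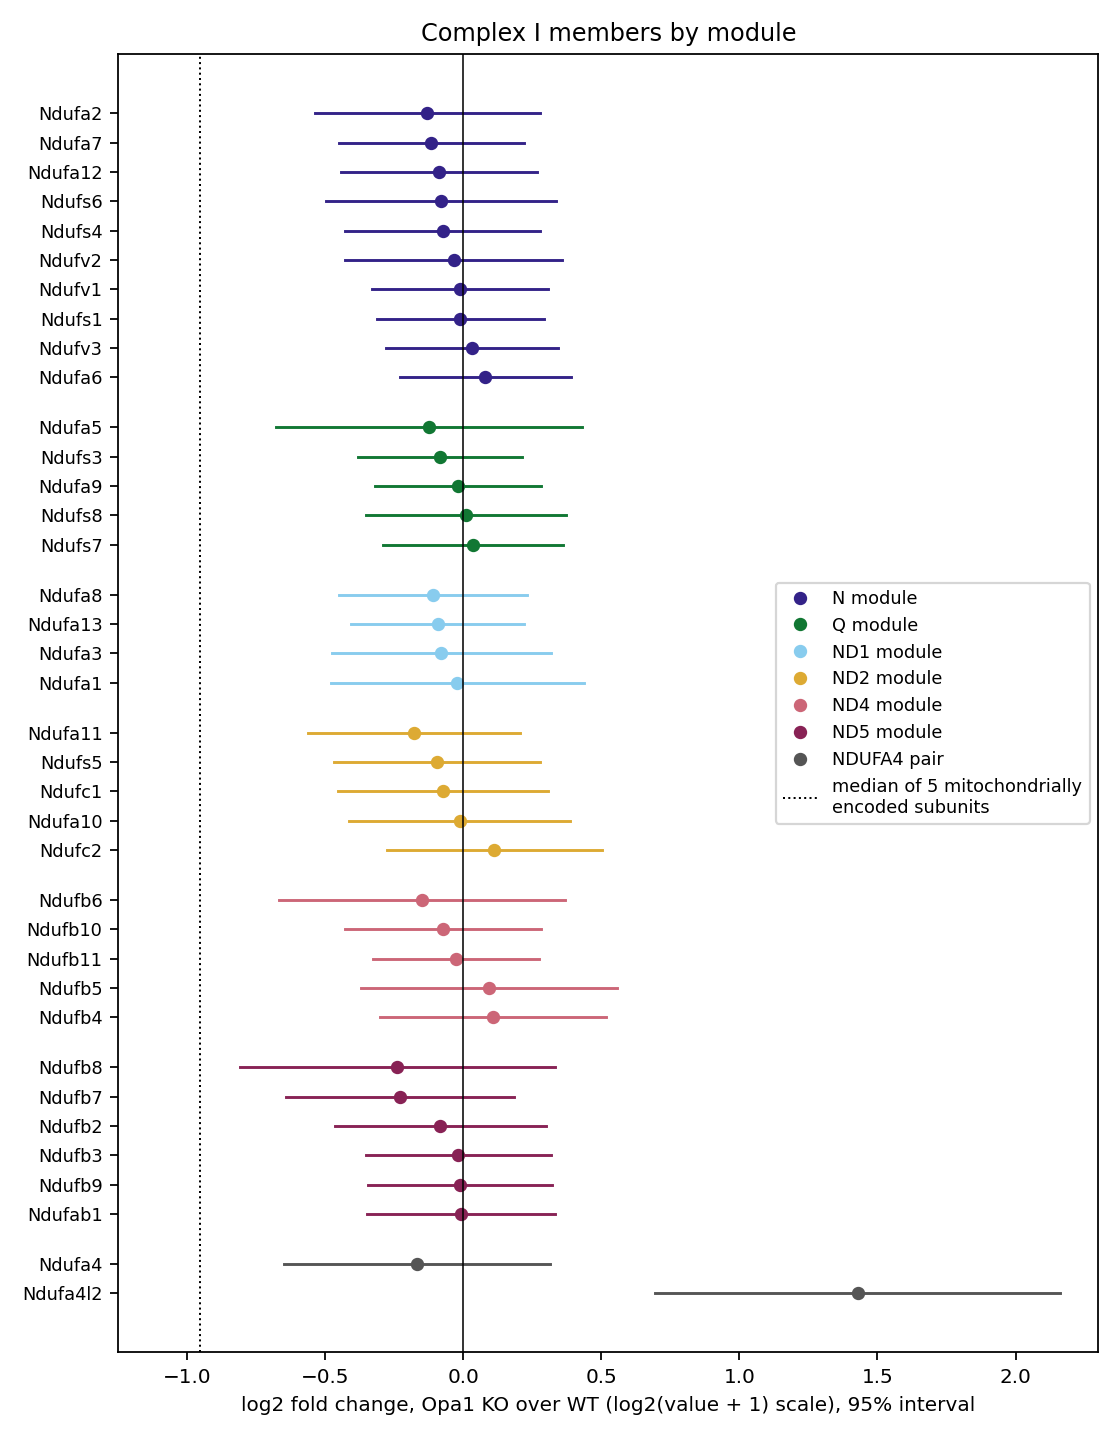
Points give the log2 fold change of Opa1 KO over WT for 37 of the 38 tested members, grouped by module, lines give the 95% interval of the limma-trend fit, and the dotted line marks the median of the 5 tested mitochondrially encoded subunits. All members drawn but Ndufa4l2 sit between -0.24 and 0.11, to the right of the dotted line at -0.95.

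The spread within the WT group was wider than the difference between the groups. The level was higher in WT 1 than in WT 2 in 34 of 38 members, with a median difference of 0.16 on the log2 scale. WT 1 held the highest of the 4 values in 27 of 37 members without Ndufa4l2. Opa1 KO 1 was likewise above Opa1 KO 2 in 29 of 38 members, with a smaller median difference of 0.053. The median absolute difference between the WT libraries was 0.19 on the log2 scale, while the median absolute fold change between the groups was 0.080. The difference between the WT libraries exceeded the fold change in 31 of 37 members. Single libraries scatter more than means of 2, so this comparison leans towards a larger WT difference even without a group effect. Without WT replicate 1, 13 of 38 members were lower and the median turned to 0.023, and without WT replicate 2, 32 were lower and the median was -0.11. Compared with WT 2, WT 1 also had fewer ependymal and more microglia transcripts, with the sums given above. The part of these cell types in the difference between the WT libraries was not tested.

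**Figure D2:**
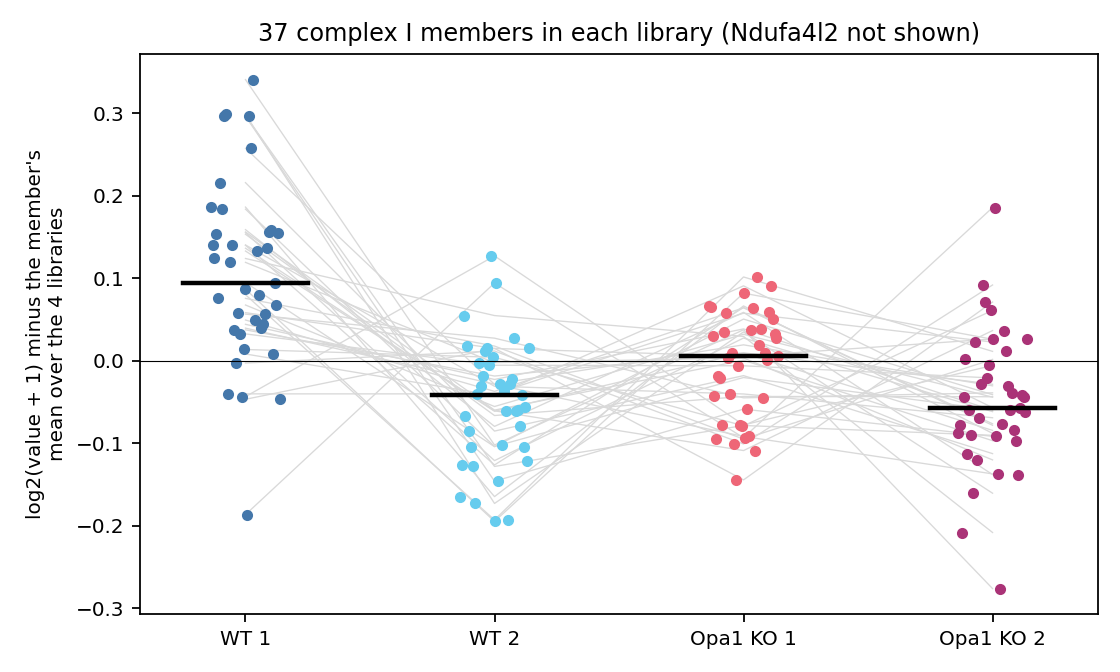
Each point is 1 of 37 members in 1 library, as its log2(value + 1) minus the mean of that member over the 4 libraries, grey lines join the values of a member and black bars give the medians. WT 1 lies above the other libraries for 27 of the 37 members, while WT 2 and both Opa1 KO libraries overlap.

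Taken as a share of all recovered reads, the members made up 0.321% and 0.290% of the WT libraries and 0.307% and 0.304% of the Opa1 KO libraries. The WT mean was 0.305% ± 0.022 (SD, n = 2). The mean of the Opa1 KO libraries was 0.306% ± 0.0026 (SD, n = 2). Both Opa1 KO shares lay between the WT shares.

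Among the core subunits, those of the electron path in the N module hardly moved. Ndufv1, which holds the flavin that accepts electrons from NADH, was at 3176, 2916, 3098 and 2939. Its fold change was -0.012, with a 95% interval from -0.33 to 0.31. Ndufv2, an iron-sulfur subunit beside it, was at 3895, 3217, 3565 and 3352, and Ndufs1, the largest iron-sulfur subunit, at 3580, 3416, 3530 and 3411. For all of these genes the Opa1 KO values fell within or next to the WT range, with fold changes of -0.034 for Ndufv2 and -0.011 for Ndufs1.

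The core of the Q module varied as little between the groups. Ndufs7, an iron-sulfur subunit at the ubiquinone pocket, was at 1879, 1814, 1989 and 1796. Ndufs8, which carries iron-sulfur clusters of the path to ubiquinone, was at 1427, 1244, 1384 and 1299. Ndufs3, a structural core subunit of this module, was at 1823, 1786, 1699 and 1706. Its groups did not overlap, with a fold change of -0.084 and a 95% interval from -0.38 to 0.21. Its adjusted p was 0.998 in limma-trend, and the other core subunits named here had fold changes from -0.034 to 0.034.

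The accessory subunits, which surround and stabilise the core, were mostly lower in the group means, by small amounts. Of 29 tested, 24 were lower in Opa1 KO, beside 51.0% of all genes, with a median of -0.075. Opa1 KO 1 was below WT 1 in 24 of the 29, with a median difference of -0.12. Opa1 KO 2 was below WT 2 in only 14, with a median difference of 0.012. WT 1 was above WT 2 in 25 of the 29. In limma-trend 0 were called and 0 had an unadjusted p under 0.05. The N module, with 10 tested members in all, had 8 lower and a median of -0.055, and the Q module, with 6, had 4 lower and a median of -0.020. The membrane arm parts had medians of -0.087 for the ND1 module (4 of 4 lower), -0.072 for the ND2 module (4 of 5), -0.027 for the ND4 module (3 of 5) and -0.051 for the ND5 module (6 of 6). Differences between the modules were not tested.

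The lowest fold changes were those of Ndufb8 and Ndufb7 in the ND5 module. Ndufb8, a membrane arm subunit whose protein is often followed as a sign of assembled complex I, was at 2439 and 1794 in WT and at 1976 and 1590 in Opa1 KO. The WT range took in the first Opa1 KO value, and the fold change was -0.24 with a standard error of 0.21. Ndufb7 was at 1147 and 940 in WT and at 900 and 872 in Opa1 KO, without overlap, with a fold change of -0.23 and a standard error of 0.15. Ndufa11, an accessory subunit at the ND2 module, was at 1262, 1203, 1182 and 1002, again without overlap, with a fold change of -0.18 and a standard error of 0.14. Ndufb6 of the ND4 module was at 990, 728, 774 and 756, where WT 1 stood apart from 3 libraries that lay close together. None of these genes passed either test, with an adjusted p of 0.998 in limma-trend for each.

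At the upper end, apart from Ndufa4l2, stood Ndufc2, Ndufb4, Ndufb5 and Ndufa6. Ndufc2, a membrane subunit next to ND2, was at 2762, 2286, 2803 and 2634, with a fold change of 0.11 and a standard error of 0.15. Ndufb4 of the ND4 module was at 1061, 873, 1058 and 1018 and had a fold change of 0.11. In both genes the low value was that of WT 2, and the Opa1 KO values sat near WT 1. Ndufb5 was at 1412, 1715, 1506 and 1828, higher in replicate 2 of either group. Ndufa6, an N module subunit, was at 1198 and 1198 in WT and at 1282 and 1251 in Opa1 KO. The WT values were closer together than in any of the genes just named and the Opa1 KO values lay above them, with a fold change of 0.080 and a standard error of 0.12.

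Some member values could hold reads of other genes. Exons of 17 tested members overlap those of another gene in the annotation, in most cases on the opposite strand, and whether the counting used strand is not given in the sources used here. They include Ndufb8, Ndufb5, Ndufb6, Ndufa11, Ndufa2, Ndufs1, Ndufs3, Ndufs6 and Ndufa4l2. Near-identical copies elsewhere in the genome, of at least 95% identity over at least 200 bases, were found for 8 members, 9 copies in all. The reads counted on these copies came to at most 3.12% of the level of the member, in Ndufs5. Ndufb4c, a processed copy of Ndufb4 and itself a member by name, was at 8.72, 9.72, 4.35 and 4.79, near the limit of 10 used for testing. Ndufs6b, the copy of Ndufs6, was at 0 in every library, which allows up to 3 reads in each, while Ndufs6, a zinc-binding N module subunit, was at 1305, 1107, 1218 and 1063. Ndufa11b had 1 read in Opa1 KO 1 and none elsewhere. Of the 17 tested members with neither an overlap nor a copy, 12 were lower, with a median of -0.034.

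Levels between genes were compared per length, as TPM, the reads per base of the principal transcript scaled to the same total in every library. Without Ndufa4l2, the members lay between 79.9 TPM (Ndufv3) and 555 TPM (Ndufa4) in the mean over the 4 libraries, with a median of 167 TPM, where the median of all tested genes was 15.0 TPM. Of these 37 members, 29 lay between 100 and 300 TPM. Below the lowest of them lay 86.3% of the tested genes. The highest were Ndufa4, Ndufc2 and Ndufa2. Ndufc2 had 355 TPM ± 39 (SD, n = 2) in the WT libraries and 395 TPM ± 4.3 (SD, n = 2) after loss of Opa1. Ndufa2, a small N module subunit, had 379 TPM ± 47 (SD, n = 2) in the WT libraries and 356 TPM ± 4.6 (SD, n = 2) after loss of Opa1, and its counts were 2492, 2022, 2119 and 1985. In WT, Ndufc2 and Ndufa2 differed by less than their spread. The order depends on the length used. Over the union of all annotated exons, Ndufa2 (576 TPM), Ndufc2 (532 TPM) and Ndufa1 (517 TPM) led, Ndufa4 had 384 TPM, and Ndufb2 (19.1 TPM) and Ndufb7 (32.6 TPM) came lowest after Ndufa4l2.

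At the other end by principal transcript, Ndufa4l2 was far below all others, and next came Ndufv3, an accessory N module subunit, and Ndufc1, a small membrane subunit. In counts, Ndufv3 was at 1252, 1307, 1298 and 1317, and Ndufc1 at 1260, 1102, 1065 and 1178. Per length, Ndufv3 had 77.9 TPM ± 4.1 (SD, n = 2) in the WT and 82.0 TPM ± 3.6 (SD, n = 2) in the Opa1 KO libraries, and Ndufc1 had 90.9 TPM ± 6.6 (SD, n = 2) and 89.2 TPM ± 9.3 (SD, n = 2). Their values in WT lay further apart than these SDs, and those in Opa1 KO did not. The order of the members was kept from library to library, with Spearman correlations between 0.94 and 0.99 across the 37 genes, which share their library and their transcript length in each comparison.

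**Figure D3:**
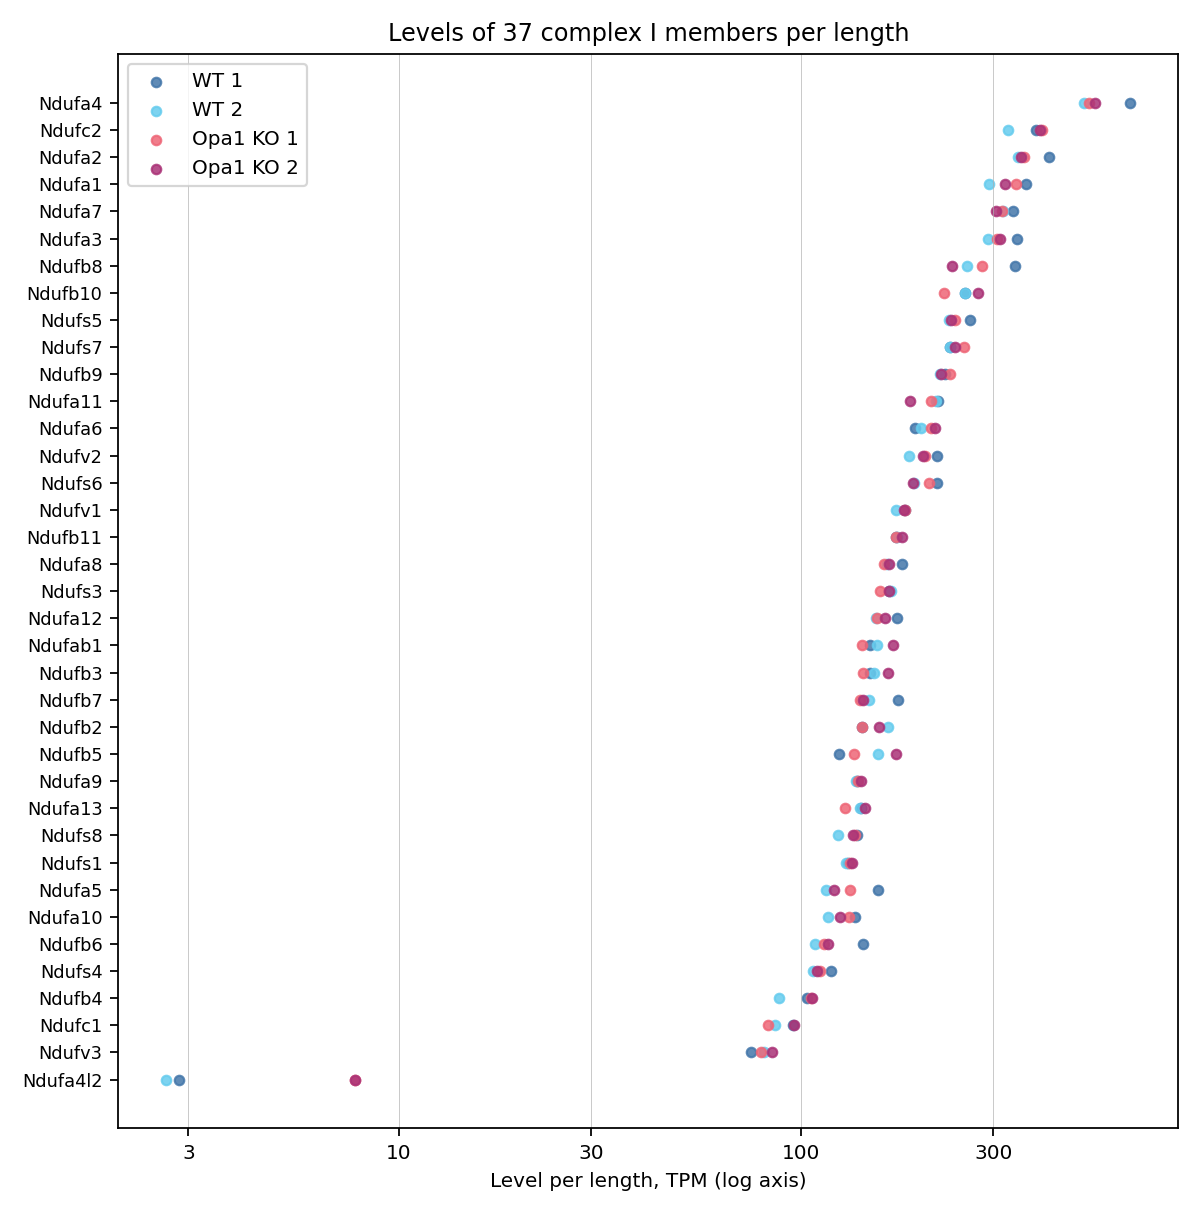
Points give the level per length (TPM, log axis) of 37 of the 38 tested members in each of the 4 libraries, ordered by their mean. Ndufa4 leads with a mean of 555 TPM, all points of the others but Ndufa4l2 lie at 75.0 TPM or above, and Ndufa4l2 stands alone below 10 TPM, with both Opa1 KO points to the right of both WT points.

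The pair shown at the start parted. Ndufa4 was at 4232 and 3152 in WT and at 3263 and 3236 in Opa1 KO, with a fold change of -0.17 and a standard error of 0.18. The Opa1 KO values lay within the WT range. Ndufa4l2 was at 28.1 and 25.3 in WT and at 75.1 and 71.8 in Opa1 KO, or 29, 26, 69 and 75 reads. Both Opa1 KO values were more than 2 times as high as either WT value. The fold change was 1.43 with a standard error of 0.27 and a 95% interval from 0.70 to 2.16, the 92nd highest of the 18547 genes tested. The change was not called. Its adjusted p was 0.998 in limma-trend, from an unadjusted p of 0.0049, and 0.48 in DESeq2. The fold change stayed between 1.19 and 1.50 under every alternative run. Even in Opa1 KO, Ndufa4l2 reached only 7.80 TPM, where Ndufa4 had 528 TPM.

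Other transcripts moved with Ndufa4l2. Of the 9 pericyte markers, 9 had a higher mean in Opa1 KO, 8 without overlap of the groups, beside 15.2% of all genes. Their median fold change was 1.37. They summed to 4171 and 2978 in WT and to 7601 and 7700 in Opa1 KO. None of the 9 was at 0. Pericytes are mural cells of capillaries, and Ndufa4l2 is among the genes they express in mouse brain. Pdgfrb, a receptor among the listed markers, rose in DESeq2 from 1058 and 1045 to 2105 and 2126. DESeq2 called 5 of the 9, beside 0.329% of all genes. Ndufa4l2 came to 0.673% and 0.849% of the pericyte sum in WT and to 0.988% and 0.932% in Opa1 KO. Cox4i2, the alternative form of a complex IV subunit, moved alike, at 36.8 and 24.3 in WT and 71.8 and 65.1 in Opa1 KO, with a fold change of 1.17. Endothelial markers summed to 1724 and 2631 in WT and to 2153 and 6001 in Opa1 KO, and those of smooth muscle to 378 and 2485 in WT and to 728 and 2750 in Opa1 KO, with overlap in both. The part of these cells in the Ndufa4l2 value was not tested.

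Of the 14 HIF targets listed, 10 were higher in Opa1 KO and 4 lower, with a median of 0.24. Over all genes tested, 51.0% were lower. Vegfa, the angiogenic factor, was the only one called by DESeq2, beside 0.329% of all genes. It went from 1969 and 1733 to 4378 and 4081. Ndrg1, a hypoxia and stress gene, was at 770, 496, 1034 and 1049. Vegfa and Ndrg1 were the 2 of the 14 that were higher without overlap, beside 15.2% of all genes. P4ha1, a collagen prolyl hydroxylase, was at 922, 1303, 1059 and 1571, higher in replicate 2 of either group. The 4 lower targets had fold changes from -0.12 to -0.037. The groups of 1 of them, Egln1, named after its values were seen, did not overlap, beside 15.7% of all genes. Shmt2, the mitochondrial serine hydroxymethyltransferase, overlaps the exons of Ndufa4l2 by 32 bases on the opposite strand and was at 1595, 1334, 2633 and 1789, higher in both Opa1 KO libraries. How far reads of Shmt2 entered the Ndufa4l2 count was not tested.

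**Figure D4:**
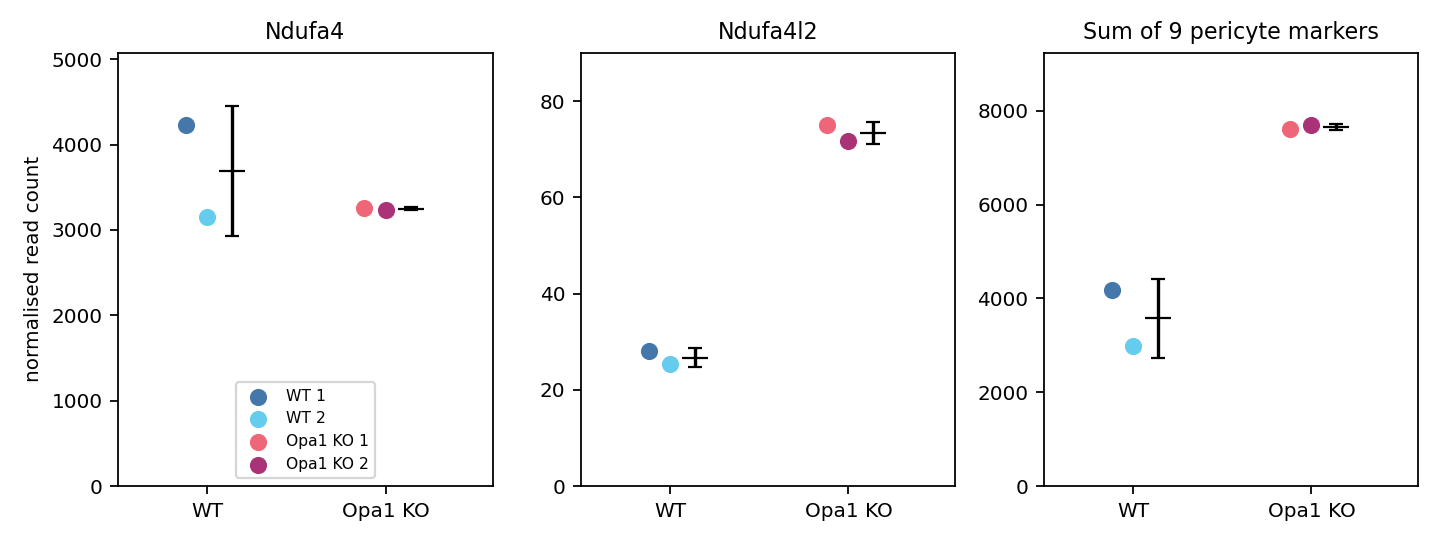
Points give the normalised read count of each library for Ndufa4, Ndufa4l2 and the sum of 9 pericyte markers, each axis starting at 0, with bars for the mean and SD of 2 libraries beside them. For Ndufa4 both Opa1 KO points lie within the WT range, while for Ndufa4l2 and the pericyte sum both lie above it.

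The subunits that complete the complex from mitochondrial DNA stood, in their median but not in every gene, at another level of change. Of the 7 encoded there, 5 were tested and 5 were lower in Opa1 KO, beside 51.0% of all genes, with a median fold change of -0.95. mt-Nd4, a proton-pumping subunit, was at 11174 and 11712 in WT and at 5888 and 6568 in Opa1 KO, and mt-Nd5 at 11937 and 12669 in WT and at 5171 and 7254 in Opa1 KO. DESeq2 called mt-Nd1, mt-Nd4 and mt-Nd5 lower, beside 0.329% of all genes called in either direction. mt-Nd2, named after its values were seen, was at 7114, 5858, 4982 and 6127, with overlap of the groups. Its fold change of -0.22 lay inside the range of the nuclear members without Ndufa4l2, from -0.24 to 0.11. mt-Nd3 and mt-Nd4l were below 10 in every library and were not tested. The 95% intervals of 37 of the 37 nuclear members without Ndufa4l2 lay above the mitochondrial median. The difference between these groups of genes was not tested. Reads of the 7 mitochondrial genes came to 0.855 and 0.782 times the summed level of these nuclear members in WT and to 0.427 and 0.492 times in Opa1 KO.

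The assembly factors, which build the complex and leave it, lay close to 0 as the nuclear subunits did. Of 18 tested, 11 were lower, with a median of -0.055, and in limma-trend or DESeq2 0 were called, with 0 at an unadjusted p under 0.05 in limma-trend. The extremes were Timmdc1, which helps to build the ND1 part, with a fold change of -0.36 and a standard error of 0.30, and Dmac2, with 0.32 and a standard error of 0.27. Foxred1, an oxidoreductase-like assembly factor, was at 950 and 979 in WT and at 1125 and 1049 in Opa1 KO, without overlap and with a fold change of 0.17. Of the 18, 2 were higher without overlap, beside 15.2% of all genes, and 0 were lower without overlap, beside 15.7%. Ndufb1-ps, which the naming rule left out, was at 893, 931, 810 and 999.

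The nuclear subunits of the other complexes also had medians just below 0. They were -0.043 for complex II (3 of 4 lower), -0.090 for complex III (8 of 9), -0.047 for complex IV (8 of 13) and -0.087 for complex V (15 of 16), and 0 of these genes were called by limma-trend or DESeq2, with 1, Cox4i2, at an unadjusted p under 0.05 in limma-trend. In complex II, Sdhd was at 2911, 2508, 2525 and 2499. In complex III, Uqcrc1 was at 6767, 6307, 6018 and 5614, and in complex V, Atp5o was at 1913, 1544, 1519 and 1392, both without overlap. In complex IV, Cox6b1 was at 3721, 3098, 3076 and 2901, also without overlap, and Cox4i2, given above, was the exception. The groups did not overlap with Opa1 KO lower in 0 of 4 genes of complex II and 1 of 9 of complex III. The counts were 1 of 13 for complex IV and 5 of 16 for complex V, beside 15.7% of all genes. With Opa1 KO higher, only Cox4i2 had groups without overlap, beside 15.2% of all genes. The difference between complex I and the other complexes was not tested.

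**Figure D5:**
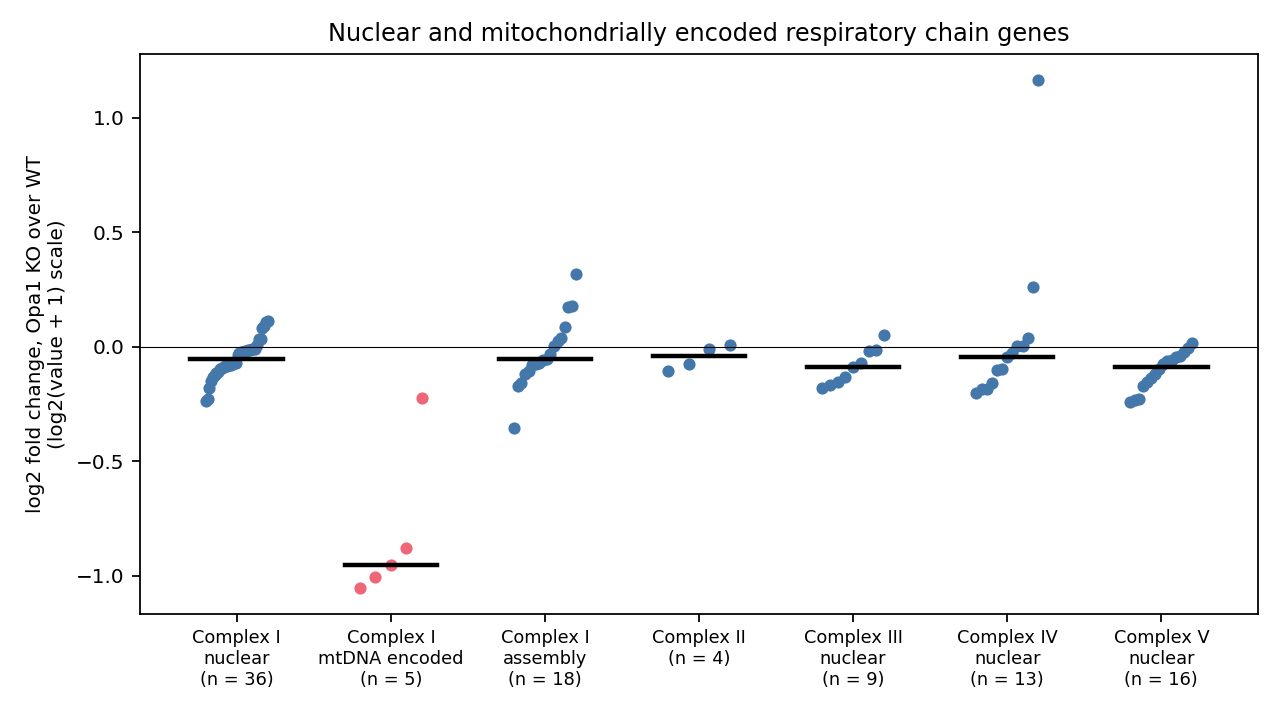
Each point is the log2 fold change of 1 tested gene, Opa1 KO over WT, black bars give the medians, and Ndufa4 and Ndufa4l2 are left out of the 36 nuclear complex I genes. The nuclear groups have medians between -0.090 and -0.043, and the 5 subunits from mitochondrial DNA have a median of -0.95.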

How the data were processed

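Bulk RNA sequencing was measured in 2 WT and 2 Opa1 KO libraries, grouped and numbered by the submitters' titles. The authors deposited a normalised signal per gene, in which reads per gene had been scaled by a size factor for each library. Their processing notes name HISAT2, SAMtools, featureCounts, DESeq2 and mm10. For tool versions, annotation release, library kit and strand setting, the entry is: not given in the sources used here. Beside the signal the deposited table holds the authors' fold changes and p-values, which were not used. Columns were matched through the sample descriptions. Dividing each column by its smallest step gave whole reads for 100% of values within 1e-06.

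Genes reaching 10 in 2 or more libraries were tested with limma-trend (limma 3.58.1, R 4.3.3) on log2(value + 1), robust moderation, genotype as the only term, two-sided, with Benjamini-Hochberg adjustment over all 18547 genes, called at 0.05. The added 1 makes changes of low genes look smaller than they are. edgeR 4.0.16, DESeq2 1.42.0 and voom on the recovered reads, other scalings, pseudocounts and filters, a replicate block and leaving out each library were alternatives. DESeq2 used the size factors recovered from the smallest step of each deposited column. The limma-trend, edgeR, voom and DESeq2 fits with genotype alone were run on simulated counts, and the other alternatives were not.

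Symbols came from GENCODE M21 (GRCm38, mm10), matching 55154 identifiers. TPM used principal transcript lengths. Promoter motifs were searched in RefSeq windows. The members, modules, marker and pathway lists and the rules were chosen with earlier results of these data known. Values per library are given for Opa1, the core subunits, members called, the 5 highest and 5 lowest fold changes, paralogs, the 3 highest and 3 lowest levels per length and, of other lists, up to 3 genes with the smallest p. A gene that this rule names is not reported here by name.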

Additional observations from a re-analysis of the deposited data

How the results depend on the processing

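No member was called under any alternative. Over all genes, DESeq2 called 61, the fit with no filter 2 and the replicate block 182, where limma-trend, edgeR and voom called 0. The titles number the libraries of both groups 1 and 2 without saying that a number marks a pair. Deviations from the group means of same-numbered libraries correlated with r = 0.718 over 18547 genes, and only 2 pairs exist, so the block is given here alone. Under it, 0 members were called, and the smallest adjusted p of a member, in limma, was 0.063 for Ndufa4l2.

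Scaling by library total gave 19 members lower and a median of -0.00018, and turned the fold changes of Ndufs1 (0.042), Ndufv1 (0.041) and Ndufv2 (0.019). Leaving out members that overlap another gene or have a copy, an alternative chosen after seeing the data, left 12 lower of 17. The cause was not tested, beyond the smaller number of members in the last case. Without each replicate in turn, 13 to 32 members were lower, with a median from -0.11 to 0.023. The fold changes then ranged from -0.28 to 0.020 for Ndufa2, from -0.38 to 0.044 for Ndufa4, from -0.033 to 0.25 for Ndufb4, from -0.048 to 0.23 for Ndufb5, from -0.37 to 0.071 for Ndufb6, from -0.17 to 0.024 for Ndufc1 and from -0.024 to 0.25 for Ndufc2. They ranged from -0.045 to 0.023 for Ndufs1, from -0.20 to 0.040 for Ndufs6, from -0.040 to 0.11 for Ndufs7, from -0.090 to 0.11 for Ndufs8, from -0.074 to 0.049 for Ndufv1 and from -0.17 to 0.10 for Ndufv2. Of 20 members with values per library, 7 kept their sign throughout, Ndufa4l2 among them. With 2 libraries per group, differences of the size seen between the WT libraries cannot be told from a group effect.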
